A study of Arabidopsis thaliana with 12 samples.

Results

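The 6 genes described here are SIP4 (AT2G30360), AT1G20750, AT4G22960, AT5G60250, AT5G07610 and AT2G47880, out of 33602 Arabidopsis thaliana loci counted in the study. They were chosen from earlier results of the same libraries, as genes with no repair role in their label whose mRNA differed from wild type in the same direction in all 3 non-wild-type genotypes. Their differences from wild type are therefore a description of that choice, with no p-value, and nothing is read from their size. The differences among the 3 non-wild-type genotypes did not enter the choice and were tested. All 6 genes passed the filter on low counts, but AT1G20750, AT4G22960 and AT5G07610 passed it through the non-wild-type libraries alone, since 0 of their 3 wild-type libraries reached the filter level of 0.706 CPM (counts per 1000000 counted reads).

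The study measured mRNA in seedlings of 4 genotypes with 3 libraries each, and no group received a treatment. The mutant abo4-1, which the series text calls a knock out, is known as a missense allele of POL2A, the catalytic subunit of DNA polymerase epsilon. DPB2oe12.1.5 and DPB2oe1.11.5 are lines that overexpress DPB2, a regulatory subunit of the same polymerase, and the labels do not give the promoter that drives it. Col-0 is the wild type. The 4 groups shared the Col-0 ecotype, growth stage 1.02, plates of 0.5x MS medium, 65% humidity, 20 °C and 16 h of light, and the labels name neither the hour of harvest nor separate cultures. The p-values below measure only the spread between these libraries, which may be technical. Whole seedlings were used, so fewer cells of a type and less RNA per cell cannot be told apart.

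Counted reads per library numbered 10902547 to 29456111. DPB2 averaged 115 ± 4.16 CPM in DPB2oe12.1.5 and 113 ± 6.53 CPM in DPB2oe1.11.5, against 2.89 ± 1.19 CPM in Col-0 (SD, n = 3 each), as the labels of the overexpressing lines say. POL2A averaged 25.3 ± 1.16 CPM in abo4-1 and 16.4 ± 0.839 CPM in Col-0 (SD, n = 3 each), and a missense allele need not lower its mRNA. The POL2A mean also exceeded Col-0 in the overexpressing lines, with 21.0 ± 5.05 (DPB2oe12.1.5) and 29.5 ± 4.64 CPM (DPB2oe1.11.5). Its log2 difference from Col-0 had an adjusted p under 0.05 for DPB2oe1.11.5 alone (0.84, adjusted p = 0.0453, edgeR quasi-likelihood test). For abo4-1 it was 0.62 (adjusted p = 0.177) and for DPB2oe12.1.5 it was 0.35 (adjusted p = 0.325) by that test. LHY, a clock gene that peaks around dawn, stood at 173 to 217 CPM in 4 libraries (abo4-1 replicate 2, DPB2oe12.1.5 replicates 1 and 2, and DPB2oe1.11.5 replicate 2) and at 3.97 to 48.0 CPM in the other 8, among them every Col-0 library. Summed markers of dividing cells had a median of 96.6 CPM in abo4-1, 66.8 CPM in DPB2oe12.1.5, 89.6 CPM in DPB2oe1.11.5, against 56.2 CPM in Col-0. Summed trichome markers had medians of 4.22, 20.7, 14.3 and 19.3 CPM in the same order of genotypes, and summed embryo and seed markers of 1.45, 16.1, 0.989 and 0.869 CPM. The embryo and seed sums were uneven between libraries. They ran from 2.57 to 17.2 CPM in DPB2oe12.1.5 and from 0.348 to 4.36 CPM in DPB2oe1.11.5, so these lines overlapped. Medians of the other marker lists lay between 20532 CPM (DPB2oe1.11.5) and 34558.5 CPM (Col-0) for green tissue, 3.78 and 7.87 CPM for root hairs, 42.7 and 67.9 CPM for root ground tissue, 7.73 and 11.4 CPM for guard cells, 104 and 286 CPM for phloem, and 11.6 and 18.7 CPM for xylem. No marker gene was at 0 in a whole group. The part of these cell types in the results below was not tested.

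The genes belong to different families. SIP4, also named CIPK11 and PKS5, is a protein kinase of the CBL-interacting family, in which a calcium-binding CBL protein recruits and activates the kinase. SIP4 phosphorylates the plasma membrane proton pump AHA2, and its loss lowers sensitivity to high external pH. AT1G20750 is annotated as a RAD3-like DNA-binding helicase, a family that includes enzymes of DNA repair, so the wording of the choice ("no repair role") and the annotation differ for this gene. AT5G60250 encodes a zinc finger protein of the C3HC4 RING type and AT5G07610 an F-box protein. RING and F-box proteins commonly serve as parts of ubiquitin ligases, with the F-box protein choosing the substrate. AT4G22960 is a FAM63A-like protein with a DUF544 domain. In humans, FAM63A trims ubiquitin chains, and the annotation gives the Arabidopsis protein no function. AT2G47880 is a small protein of the glutaredoxin family, whose members reduce or modify proteins with the help of glutathione.

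In the TAIR10.1 annotation, SIP4 lies on chromosome 2 at 12936968 to 12938834 on the minus strand and has 1 exon and 435 residues. AT1G20750 lies on chromosome 1 at 7203302 to 7209013 on the minus strand, as a partial model of 25 exons and 1144 residues. AT4G22960 lies on chromosome 4 at 12030020 to 12033380 on the plus strand, with 12 exons and 524 residues. AT5G60250 lies on chromosome 5 at 24252138 to 24255900 on the plus strand, with 4 exons and 655 residues. AT5G07610 lies on the same chromosome at 2406068 to 2407330 on the plus strand, as a partial model of 1 coding exon and 420 residues. AT2G47880 lies on chromosome 2 at 19605030 to 19605704 on the plus strand, with 1 exon and 102 residues. No 2 of the 6 genes are neighbours.

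The upstream sequences of 3 genes are shown because AT1G20750 was the gene with most of the searched motifs, while AT4G22960 and AT5G60250 were the genes that differed between mutant lines and held none of them. Each line gives the 250 bases before the annotated start in the TAIR10.1 genome, 5′ to 3′ on the gene's strand, at chr1:7209014-7209263 (minus), chr4:12029770-12030019 (plus) and chr5:24251888-24252137 (plus). Capitals mark, in order, the match to the palindromic site bound by the DNA damage factor SOG1, which is CTT and AAG around 7 free bases, and the match to TTTCCCGC, a site bound by E2F factors of the G1/S transition.
AT1G20750: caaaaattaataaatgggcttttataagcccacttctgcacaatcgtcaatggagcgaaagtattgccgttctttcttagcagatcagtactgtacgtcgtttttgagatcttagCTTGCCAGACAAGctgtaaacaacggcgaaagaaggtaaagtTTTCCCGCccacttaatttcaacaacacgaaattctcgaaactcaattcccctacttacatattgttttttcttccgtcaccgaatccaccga
AT4G22960: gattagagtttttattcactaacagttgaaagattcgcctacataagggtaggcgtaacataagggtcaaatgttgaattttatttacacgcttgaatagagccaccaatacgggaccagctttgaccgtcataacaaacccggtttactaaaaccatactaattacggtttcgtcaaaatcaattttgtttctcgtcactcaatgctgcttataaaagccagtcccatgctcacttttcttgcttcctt
AT5G60250: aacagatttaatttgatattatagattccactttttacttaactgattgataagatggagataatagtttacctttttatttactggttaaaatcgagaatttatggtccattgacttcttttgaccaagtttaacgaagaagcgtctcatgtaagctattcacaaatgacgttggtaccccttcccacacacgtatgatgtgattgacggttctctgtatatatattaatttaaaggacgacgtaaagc
AT1G20750 had a SOG1-type match from -135, CTTGCCAGACAAG, and another from position 20 after the start, CTTCCACAAGAAG, with positions counted from the annotated start. Its E2F match began at -93. The annotated AT1G20750 transcript begins only 15 bases before the coding sequence, so its true start may lie further upstream. The AT5G07610 model has 0 bases before its coding sequence, so the same limit holds for the window searched for that gene.

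Both strands of the window from 250 bases before to 50 bases after the start were searched in all 27443 protein-coding promoters. The SOG1 site was found in 11.8% of them and in 1 of the 6 genes. TTTCCCGC was found in 0.798% of them and in 1 of the 6 genes, the same AT1G20750, and TTTGGCGC, another E2F site, in 0.434% and in 0 of the 6. AACGG, the core of the MSA element bound by mitotic MYB factors, was found in 24.7% of promoters and in 2 of the 6 genes, AT1G20750 and SIP4. The SIP4 match began at -68 and is shown in capitals within its 65 bases, chr2:12938868-12938932 on the minus strand.
SIP4: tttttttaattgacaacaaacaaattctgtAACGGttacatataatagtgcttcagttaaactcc
These are matches of letters in a window and carry no measurement of binding.

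SIP4 had 31.3, 26.5 and 26.9 CPM in the 3 abo4-1 libraries, 20.2, 18.3 and 19.1 CPM in DPB2oe12.1.5, and 18.5, 21.6 and 15.3 CPM in DPB2oe1.11.5, against 9.41, 6.84 and 9.07 CPM in Col-0. The abo4-1 libraries were the highest, the libraries of the DPB2oe lines lay between and among each other, and every Col-0 library lay below all 9 mutant libraries. The difference from Col-0 was 1.73 in abo4-1, 1.17 in DPB2oe12.1.5 and 1.12 in DPB2oe1.11.5 on the log2 scale. These values are relative to medians over all tested genes that lay within 0.0113 of 0 in every comparison.

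AT5G60250, the RING-type gene, had 23.2, 35.7 and 31.5 CPM in abo4-1, 6.26, 5.16 and 3.82 CPM in DPB2oe12.1.5, and 4.62, 5.70 and 3.58 CPM in DPB2oe1.11.5, against 0.797, 1.76 and 0.743 CPM in Col-0. All abo4-1 libraries stood far above the DPB2oe libraries, which overlapped each other and lay above all of Col-0. The log2 difference from Col-0 was 4.89 in abo4-1, 2.32 in DPB2oe12.1.5 and 2.20 in DPB2oe1.11.5. Per kilobase of the deposited length, AT5G60250 reached 13.9 ± 2.93 CPM in abo4-1, close to the 15.2 ± 1.45 of SIP4 there, against 0.506 ± 0.263 and 4.55 ± 0.752 in Col-0 (SD, n = 3 each).

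AT4G22960, the FAM63A-like gene, had 6.78, 5.85 and 5.03 CPM in abo4-1, 1.28, 2.24 and 2.88 CPM in DPB2oe12.1.5, and 1.69, 1.87 and 1.30 CPM in DPB2oe1.11.5, against 0.181, 0.0977 and 0.212 CPM in Col-0. The order of groups was that of AT5G60250, with abo4-1 clear of both DPB2oe lines. Its Col-0 level rested on 10 counts over the 3 libraries, against 258 in abo4-1, 86 in DPB2oe12.1.5 and 94 in DPB2oe1.11.5. The log2 difference from Col-0 was 5.02 in abo4-1, 3.56 in DPB2oe12.1.5 and 3.16 in DPB2oe1.11.5.

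AT5G07610, the F-box gene, had 2.89, 3.13 and 1.84 CPM in abo4-1, 1.85, 3.67 and 1.87 CPM in DPB2oe12.1.5, and 1.49, 4.74 and 2.78 CPM in DPB2oe1.11.5. In Col-0 it had 1, 0 and 1 counts, so it was close to undetected there, at a depth where 3 counts correspond to 0.109 to 0.293 CPM. The 3 mutant lines overlapped throughout, and replicate 2 was the highest library in each of them. Over the counts of each group, the level was 77.0 times that of Col-0 in abo4-1 (95% interval 20.8 to 643), 71.6 times in DPB2oe12.1.5 (19.3 to 599) and 86.2 times in DPB2oe1.11.5 (23.5 to 718), where the intervals cover counting error only, rest on 2 Col-0 counts and are no test of a difference that was used in the choice. LHY was at 173 to 217 CPM in all 3 of these replicate 2 libraries, and also in DPB2oe12.1.5 replicate 1, where AT5G07610 was not raised above replicate 3.

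AT1G20750, the RAD3-like helicase gene, had 1.50, 0.975 and 1.93 CPM in abo4-1, 2.25, 1.22 and 0.857 CPM in DPB2oe12.1.5, and 2.29, 1.48 and 1.67 CPM in DPB2oe1.11.5, against 0.181, 0.0977 and 0.265 CPM in Col-0. The mutant lines overlapped and all 9 libraries lay above Col-0, where the gene had 11 counts in all. The log2 difference from Col-0 was 2.87 in abo4-1, 2.85 in DPB2oe12.1.5 and 3.19 in DPB2oe1.11.5. Per kilobase it had the lowest level of the 6 genes in each of the 3 mutant lines, with 0.428 ± 0.140 CPM in abo4-1 (SD, n = 3).

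AT2G47880, the glutaredoxin gene, was the only member of the 6 below Col-0. It had 1.000, 1.18 and 1.06 CPM in abo4-1, 0.964, 0.272 and 1.17 CPM in DPB2oe12.1.5, and 1.94, 0.957 and 1.17 CPM in DPB2oe1.11.5, against 4.38, 5.57 and 6.15 CPM in Col-0. All 9 mutant libraries lay below every Col-0 library, and the mutant lines overlapped. The log2 difference from Col-0 was -2.30 in abo4-1, -2.75 in DPB2oe12.1.5 and -1.97 in DPB2oe1.11.5. The DPB2oe12.1.5 mean rested on 31 counts, 4 of them in replicate 2.

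**Figure D1:**
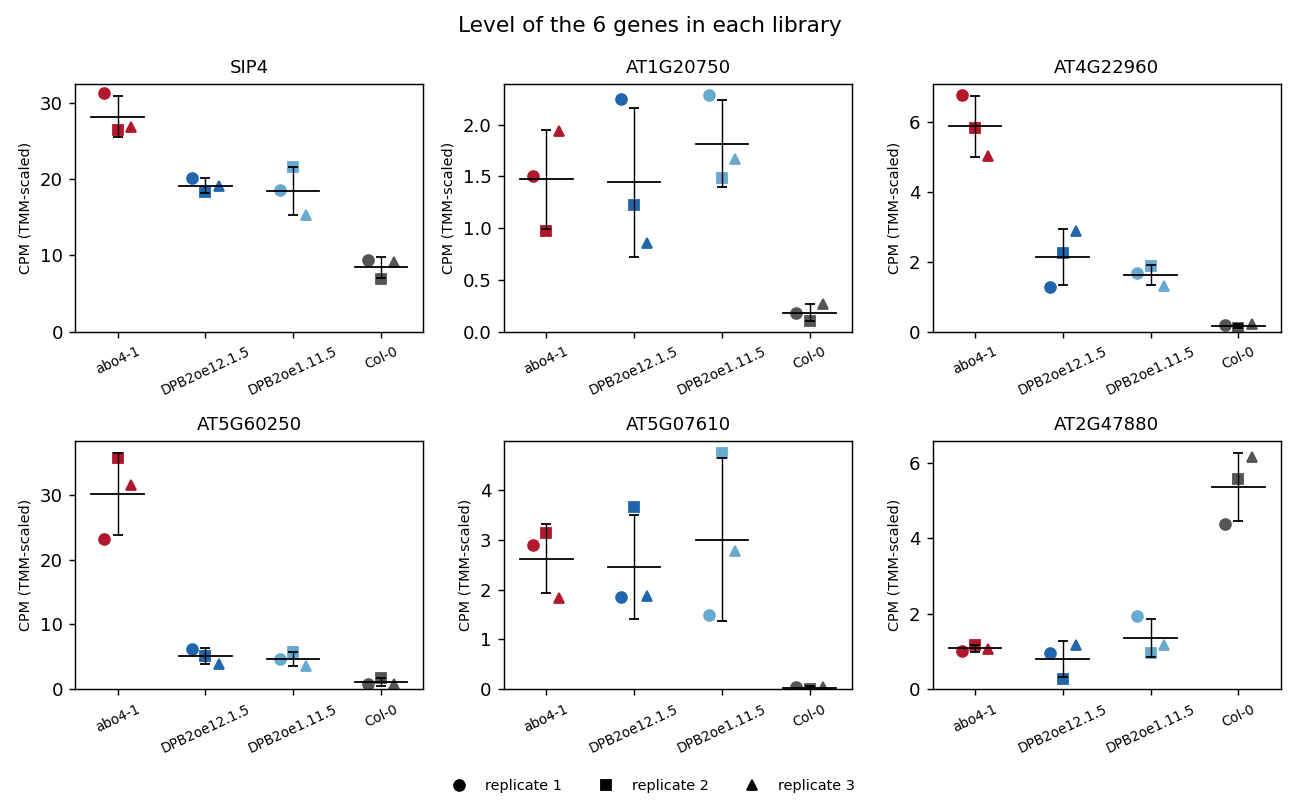
Level of each gene in the 12 libraries, in CPM on a linear axis from 0, with the genotypes abo4-1, DPB2oe12.1.5, DPB2oe1.11.5 and Col-0 from left to right. Points are libraries, with shapes for replicate numbers, horizontal bars are means and whiskers are SD (n = 3). SIP4, AT4G22960 and AT5G60250 step down between abo4-1 and the DPB2oe lines, while AT1G20750, AT5G07610 and AT2G47880 overlap among the 3 mutant lines.

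All 9 mutant libraries stood apart from every Col-0 library in 6 of 6 genes. The genes were chosen for moving the same way in these comparisons, so this is a description. Over all 19924 tested genes, 1.15% were higher than Col-0 with no overlap in all 3 lines and 0.903% were lower with no overlap. The comparisons share the same 3 Col-0 libraries, so they are not independent of each other. Over the whole table, 11 genes (0.0552%) were called higher in all 3 lines and 1 gene (0.00502%) was called lower (edgeR quasi-likelihood test, Benjamini-Hochberg adjusted p under 0.05 in each comparison). The 6 genes are among these 12, but they were chosen on the same comparisons, so this is no test of them. The other genes of the 12 are TK1a, SMR7, PARP2, BRCA1, GMI1 and XRI1, which are known from responses to DNA damage. Ranked among genes of the same sign by the smallest of their 3 log2 differences from Col-0, AT5G07610 stood at place 1, AT4G22960 at 3, AT1G20750 at 6, AT5G60250 at 10 and SIP4 at 45 of the higher genes, and AT2G47880 at 2 of the lower genes. The Col-0 levels of AT5G07610, AT4G22960 and AT1G20750 rested on only 2, 10 and 11 counts. These places describe values that were used in the choice, so nothing is read from them.

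The tests between mutant lines asked whether the genes were equally displaced in the polymerase mutant and in the DPB2 overexpressors. In abo4-1 against DPB2oe1.11.5, 2 of the 6 genes were called, both higher in abo4-1, where the background of called genes was 1.64% (1.28% higher and 0.361% lower). AT5G60250 was higher by 2.69 ± 0.28 on the log2 scale (SE, adjusted p = 0.000436 by the edgeR quasi-likelihood test over 19924 genes, 95% interval 2.09 to 3.30). AT4G22960 was higher by 1.86 ± 0.30 (adjusted p = 0.00790, 95% interval 1.21 to 2.50). Every abo4-1 library lay above every DPB2oe1.11.5 library for both genes. The AT4G22960 call was lost without DPB2oe1.11.5 replicate 1 (1.86, adjusted p = 0.0512) or without replicate 3 (1.71, adjusted p = 0.0621), while the difference stayed at 1.71 to 1.95 with any library of these lines left out.

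In abo4-1 against DPB2oe12.1.5 the same 2 genes were called higher, with a background of 0.713% called (0.341% higher and 0.371% lower). AT5G60250 differed by 2.57 ± 0.28 (adjusted p = 0.000802, 95% interval 1.95 to 3.18). AT4G22960 differed by 1.46 ± 0.30 (adjusted p = 0.0438, 95% interval 0.81 to 2.11), and again no library of the lines overlapped. This AT4G22960 call was a marginal one: it was lost in 5 of the 6 fits that left out a library of these lines (differences of 1.205 to 1.548, adjusted p up to 0.158), with the replicate number as a block (1.47, adjusted p = 0.0549) and without the 4 libraries of highest LHY (1.04, adjusted p = 0.279). The AT5G60250 call was kept in each of these fits. Summed phloem markers also separated these lines, at 179 to 295 CPM in abo4-1, against 98.9 to 167 CPM in DPB2oe12.1.5 and 114 to 134 CPM in DPB2oe1.11.5, as did trichome markers, at 3.97 to 5.71 CPM in abo4-1, against 19.9 to 21.5 CPM in DPB2oe12.1.5 and 12.9 to 17.3 CPM in DPB2oe1.11.5. Xylem markers did so too, at 15.5 to 19.8 CPM in abo4-1. Those were at 9.72 to 12.8 CPM in DPB2oe12.1.5 and 11.9 to 13.7 CPM in DPB2oe1.11.5. The part of these marker lists in the differences was not tested.

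SIP4 was higher in abo4-1 in every library than in either DPB2oe line, by 0.56 ± 0.16 against DPB2oe12.1.5 (adjusted p = 0.129, 95% interval 0.21 to 0.91) and by 0.61 ± 0.16 against DPB2oe1.11.5 (adjusted p = 0.0732, 95% interval 0.27 to 0.96), and neither value passed the threshold. The second passed it with DESeq2 (0.60, adjusted p = 0.0250) and without DPB2oe1.11.5 replicate 2 (0.72, adjusted p = 0.0438, edgeR). Without the 4 libraries of highest LHY it stood at 0.77. It stayed uncalled in 5 of the 6 edgeR fits that left out a library of these lines. Over those 6 fits it ran from 0.48 to 0.72, with adjusted p up to 0.283.

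For the remaining 3 genes no difference between abo4-1 and a DPB2oe line was detected, with 95% intervals that still allow differences of up to 1.44 on the log2 scale. AT1G20750 differed by 0.02 against DPB2oe12.1.5 (95% interval -0.88 to 0.92, adjusted p = 0.996) and by -0.32 against DPB2oe1.11.5 (-1.18 to 0.55, adjusted p = 0.753). AT5G07610 differed by 0.10 (-0.83 to 1.02, adjusted p = 0.941) and by -0.19 (-1.08 to 0.71, adjusted p = 0.877) in the same comparisons. AT2G47880 differed by 0.45 (-0.53 to 1.44, adjusted p = 0.674) and by -0.33 (-1.23 to 0.57, adjusted p = 0.755). These are low-count genes, with 31 to 174 counts per mutant line.

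Between the overexpressing lines, DPB2oe12.1.5 against DPB2oe1.11.5, 0 of the 6 genes were called with edgeR, 0 had an unadjusted p under 0.05 and 0 were called with DESeq2, where 0.0301% of all genes were called with edgeR (0.0151% higher and 0.0151% lower). The values ran from -0.78 ± 0.44 for AT2G47880 (95% interval -1.72 to 0.16, adjusted p = 0.359) to 0.40 for AT4G22960 (-0.28 to 1.07, adjusted p = 0.523). The closest bound was for SIP4, at 0.05 with a 95% interval of -0.30 to 0.40 (adjusted p = 0.893). AT5G60250 stood at 0.13 (-0.49 to 0.74, adjusted p = 0.846), AT5G07610 at -0.28 (-1.18 to 0.62, adjusted p = 0.755) and AT1G20750 at -0.33 (-1.20 to 0.53, adjusted p = 0.692).

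**Figure D2:**
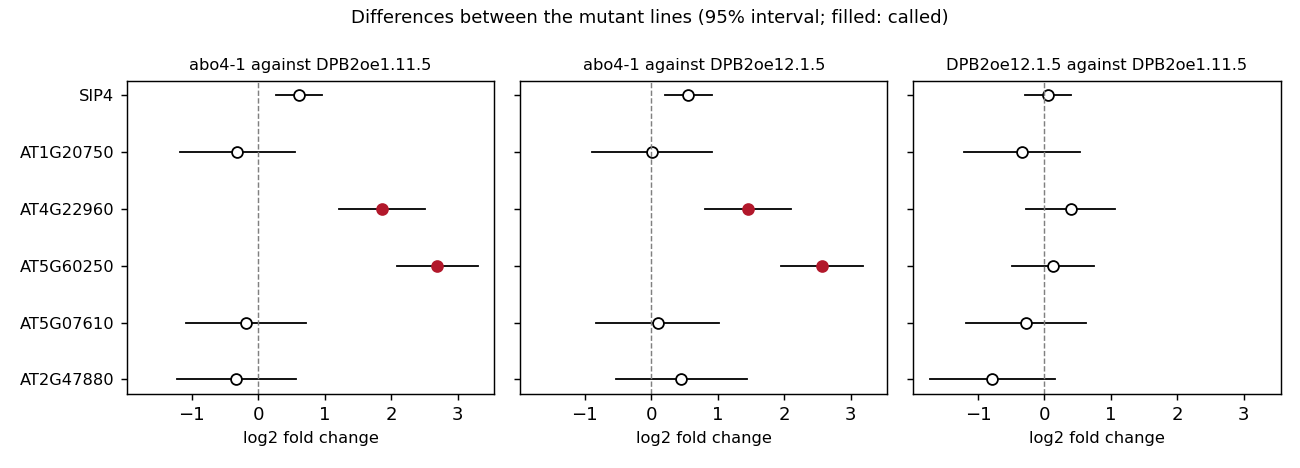
Log2 fold change of each gene between mutant lines, in 3 panels for abo4-1 against DPB2oe1.11.5, abo4-1 against DPB2oe12.1.5 and DPB2oe12.1.5 against DPB2oe1.11.5. Lines are 95% intervals and filled red points were called (adjusted p under 0.05, edgeR). AT5G60250 and AT4G22960 are the called genes in both abo4-1 panels, at 2.69 and 1.86 and at 2.57 and 1.46, and the last panel has none.

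The order of levels therefore differed between genes. For AT5G60250, AT4G22960 and SIP4 the mean was highest in abo4-1, then DPB2oe12.1.5, DPB2oe1.11.5 and Col-0, and the lines DPB2oe12.1.5 and DPB2oe1.11.5 did not separate beyond their spread. For AT5G07610 and AT1G20750 the mean was highest in DPB2oe1.11.5, and none of the mutant neighbours in the order separated. For AT2G47880 the order was Col-0, DPB2oe1.11.5, abo4-1 and DPB2oe12.1.5, and the mutant lines again did not separate.

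Within the 9 mutant libraries, levels of SIP4, AT4G22960 and AT5G60250 moved together, with Pearson r of 0.88 for SIP4 and AT4G22960, 0.90 for SIP4 and AT5G60250 and 0.87 for AT4G22960 and AT5G60250 (log2 CPM, n = 9). After subtraction of each line's mean, the same correlations were 0.30, 0.30 and -0.41, so the joint movement lay mainly between lines, with abo4-1 high for all of them. AT5G07610 and AT2G47880 showed the reverse, with r of -0.55 over the levels and -0.78 over the deviations. So did AT1G20750 with AT4G22960 (-0.42 and -0.73) and with AT5G07610 (-0.41 and -0.51). These are descriptions over few libraries that share depth and harvest within a library.

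**Figure D3:**
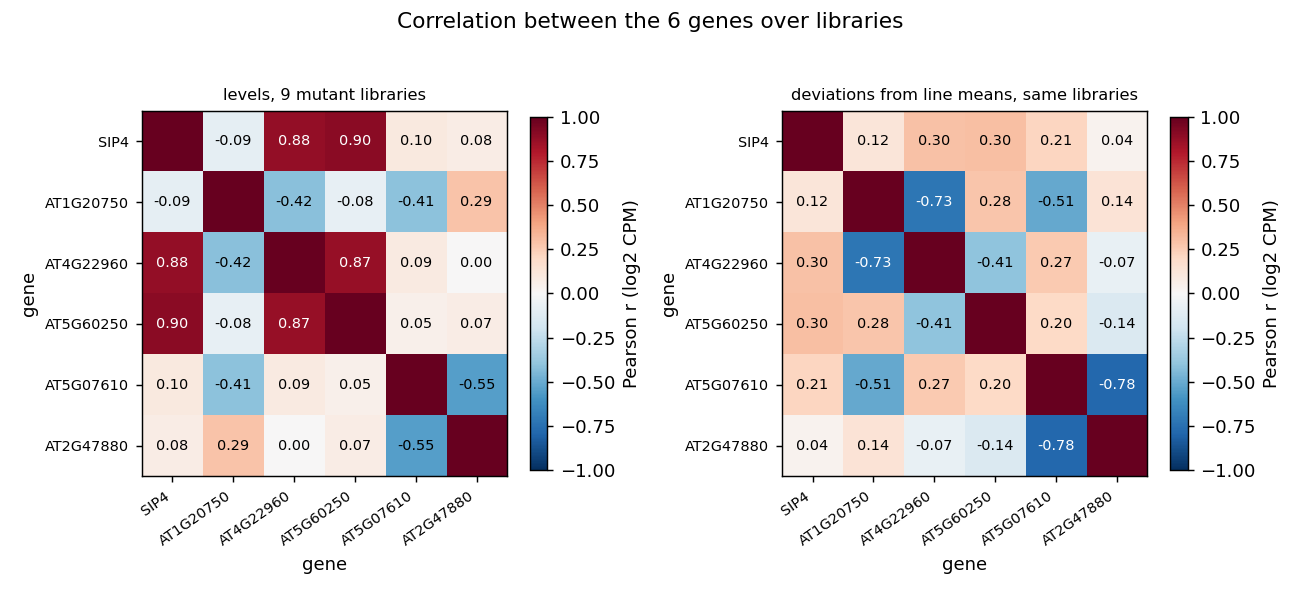
Pearson r between the 6 genes over the 9 mutant libraries (log2 CPM), for levels on the left and for deviations from each line's mean on the right. SIP4, AT4G22960 and AT5G60250 form a block at 0.87 to 0.90 for levels that is at -0.41 to 0.30 for deviations.

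By the highest Pearson r over all 12 libraries among 14118 genes with a mean of at least 5 CPM, the genes most like SIP4 were BRCA1 (0.95), TK1a (0.95) and GMI1 (0.94), with r of 0.79, 0.86 and 0.90 over the 9 mutant libraries. AT4G22960 was most like SIP4 itself (0.97), TK1a (0.97) and BRCA1 (0.96), which over the mutant libraries gave 0.88, 0.91 and 0.80. AT5G60250 was most like XRI1 (0.98), TSO2 (0.97) and PARP2 (0.97), which over the mutant libraries gave 0.97, 0.97 and 0.96. BRCA1, GMI1, XRI1 and PARP2 are known as genes induced by DNA damage, and TK1a and TSO2 serve the supply of deoxynucleotides. Groups that stand apart fix much of an r over all 12 libraries, so the value without Col-0 is also given. That value still holds the step between abo4-1 and the DPB2oe lines. TSO2, for example, averaged 610 CPM in abo4-1, 213 CPM in DPB2oe12.1.5 and 163 CPM in DPB2oe1.11.5. Likeness within the lines was not measured for these companions.

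The other 3 genes had other companions. AT1G20750 was most like BAM3 (0.96), AT5G48020 (0.92) and POL (0.91), and over the mutant libraries r was 0.71, 0.43 and 0.83. AT5G07610 was most like BAM3 (0.93), AT2G38800 (0.92) and GRF7 (0.92), but over the mutant libraries r was -0.22, 0.56 and 0.37, so the likeness rested on the step between the mutants and Col-0. AT2G47880 was most like AGP21 (0.90), ABA2 (0.89) and AT4G32060 (0.89), with r of 0.58, 0.75 and 0.64 over the mutant libraries. BAM3, a receptor kinase of phloem development, averaged 50.9 CPM in abo4-1, 49.9 CPM in DPB2oe12.1.5, 54.7 CPM in DPB2oe1.11.5, against 34.5 CPM in Col-0, a much smaller step than that of either gene.

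A list of 25 DNA damage genes gave the scale of that response, and 24 of them were tested. Against Col-0, 14 were called higher in abo4-1 (median log2 difference 1.19), 9 in DPB2oe12.1.5 (median 0.77) and 7 in DPB2oe1.11.5 (median 0.68), with 0 lower in any of the 3. Of all tested genes, 0.567%, 0.201% and 0.176% were called higher in the same order of lines, and 0.216%, 0.226% and 0.532% lower. In either direction 0.783%, 0.427% and 0.708% were called, and the medians of all genes were near 0. Beside the members, abo4-1 exceeded DPB2oe12.1.5 for 5 of these 24 genes and DPB2oe1.11.5 for 9 of them. The shares of all tested genes called higher in abo4-1 were 0.341% and 1.28% in these comparisons. PARP2 was higher in abo4-1 by 1.62 ± 0.17 against DPB2oe12.1.5 and by 1.35 ± 0.17 against DPB2oe1.11.5 (adjusted p = 0.000583 and 0.00149, edgeR). Of the list genes with the lowest adjusted p, BRCA1 averaged 32.0 ± 5.09 CPM in abo4-1, 22.05 ± 2.21 CPM in DPB2oe12.1.5 and 18.6 ± 1.16 CPM in DPB2oe1.11.5, against 6.63 ± 0.0670 CPM in Col-0 (SD, n = 3 each). TK1a averaged 70.7 ± 14.8, 36.8 ± 7.23, 27.5 ± 3.91 and 9.91 ± 0.477 CPM and GMI1 28.2 ± 3.71, 11.3 ± 1.21, 11.7 ± 1.01 and 4.86 ± 0.986 CPM in the same order of genotypes. TSO2, a small subunit of ribonucleotide reductase, was higher in abo4-1 by 1.52 ± 0.24 against DPB2oe12.1.5 and by 1.91 ± 0.24 against DPB2oe1.11.5 (adjusted p = 0.0114 and 0.00158, edgeR), and XRI1 by 1.11 ± 0.19 against DPB2oe12.1.5 (adjusted p = 0.0185, edgeR). SMR7, a cyclin-dependent kinase inhibitor, averaged 23.6 ± 5.25 CPM in abo4-1, 10.8 ± 0.978 CPM in DPB2oe12.1.5, 5.42 ± 1.27 CPM in DPB2oe1.11.5, against 1.09 ± 0.474 CPM in Col-0 (SD, n = 3 each). The list was drawn up with earlier results of these libraries known.

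The rest of the kinase family of SIP4 was tested beside it. Of the other 25 CIPK loci, 23 were tested and 0 were called in any of the 6 comparisons with edgeR. Between 0 and 4 of them had an unadjusted p under 0.05 per comparison, and DESeq2 called 1 in abo4-1 against Col-0 and 2 in abo4-1 against DPB2oe12.1.5. Their median log2 difference from Col-0 was -0.11 in abo4-1, 0.04 in DPB2oe12.1.5 and 0.06 in DPB2oe1.11.5. Of the 10 CBL calcium sensors, 7 were tested and CBL10 alone was called against Col-0, lower by -0.93 ± 0.18 in DPB2oe12.1.5 at 8.49 ± 1.20 CPM against 16.2 ± 3.67 CPM (SD, n = 3 each, adjusted p = 0.0495, edgeR). Between mutant lines 0 of the 7 were called with edgeR, 0 to 3 had an unadjusted p under 0.05, and DESeq2 called 2 in DPB2oe12.1.5 against DPB2oe1.11.5. The partners SOS1, SOS2, SOS3, AHA1 and AHA2 were all tested and 0 were called in any comparison with edgeR or DESeq2, with 0 to 2 at an unadjusted p under 0.05.

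None of the closest paralogues that could be tested was called. Of the loci that met the BLAST criteria (211 for SIP4, 16 for AT2G47880, 12 for AT5G60250, 2 for AT1G20750, 1 for AT4G22960 and 0 for AT5G07610), the 3 best per gene were kept, which gave 12 loci for 5 genes, and 8 of the 12 were tested, with 0 called in any comparison by edgeR or DESeq2 and 0 or 1 at an unadjusted p under 0.05. SR1 and CIPK12, which share 59.5% and 53.1% of aligned residues with SIP4, differed from Col-0 by -0.09 and 0.02 in abo4-1, by -0.51 and 0.09 in DPB2oe12.1.5 and by -0.44 and 0.13 in DPB2oe1.11.5 on the log2 scale. AT1G20720, a second RAD3-like helicase with 68.9% identity to AT1G20750, averaged 4.39 ± 0.869 CPM in abo4-1, 2.87 ± 1.41 CPM in DPB2oe12.1.5, 4.07 ± 1.24 CPM in DPB2oe1.11.5, against 3.69 ± 0.864 CPM in Col-0 (SD, n = 3 each).

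AT4G11860, the other FAM63A-like gene, with 35.1% identity to AT4G22960, averaged 17.9 ± 0.572 CPM in abo4-1, 21.2 ± 3.24 CPM in DPB2oe12.1.5, 22.1 ± 1.61 CPM in DPB2oe1.11.5, against 20.8 ± 1.08 CPM in Col-0 (SD, n = 3 each). The RING paralogues of AT5G60250, AT2G25370, AT3G45580 and AT5G37560, had 0 to 5 counts per genotype and were not tested. AT3G62960 shares 94% of 100 aligned residues with AT2G47880 and had 23 counts in abo4-1, 22 in DPB2oe12.1.5, 24 in DPB2oe1.11.5 and 48 in Col-0. Its log2 difference from Col-0 was -0.54 ± 0.63, -0.55 ± 0.63 and -0.98 ± 0.62 in the same order of lines and was not called (adjusted p = 0.919, 0.676 and 0.504, edgeR). Reads that hit several places were removed before counting, which may lower the levels of loci alike in sequence. The identity above is that of the proteins. Identity of the transcripts was not measured, so the effect on this pair is unknown.

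**Figure D4:**
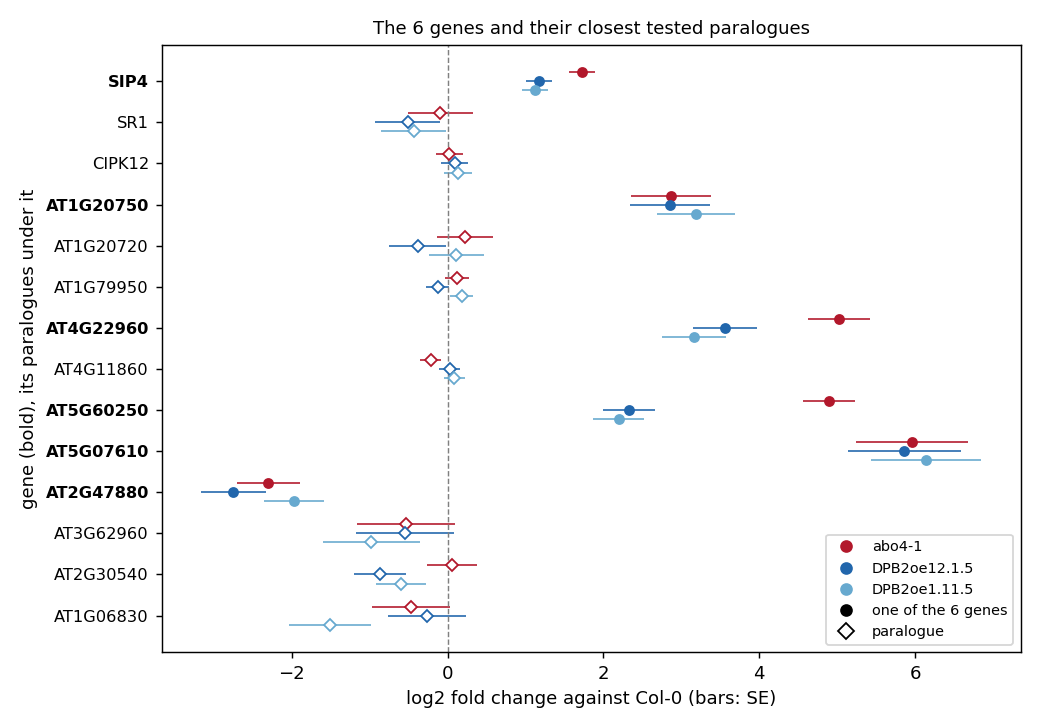
Log2 fold change against Col-0 of the 6 genes (filled circles, bold names) and of their tested paralogues (open diamonds, listed under each gene), with SE bars and colours for abo4-1, DPB2oe12.1.5 and DPB2oe1.11.5. The genes span -2.75 to 6.14, where the upper end is the fitted value of AT5G07610 over a Col-0 group of 2 counts and depends on the prior count, and the paralogues lie between -1.51 and 0.22.

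Of 13 other glutaredoxin loci like AT2G47880 (ROXY1, ROXY2, GRX480 and those of at least 50% identity), 9 were tested and 0 were called in any of the 6 comparisons with edgeR. Between 1 and 3 had an unadjusted p under 0.05, and DESeq2 called 1 in abo4-1 against Col-0 and 2 in abo4-1 against DPB2oe1.11.5. Their median log2 difference from Col-0 was 0.20 in abo4-1, -0.33 in DPB2oe12.1.5 and -0.76 in DPB2oe1.11.5. The receptors CEPR1 and CEPR2 and the nitrate transporter NRT2.1, which act in a nitrogen-demand pathway with some glutaredoxins of this type, gave 0 calls with edgeR, 0 to 2 at an unadjusted p under 0.05, and with DESeq2 2 calls in DPB2oe12.1.5 against Col-0 and 1 in abo4-1 against DPB2oe12.1.5. NRT2.1 varied most between libraries, with 0.255 ± 0.185 CPM in DPB2oe12.1.5 and 8.90 ± 6.61 CPM in Col-0 (SD, n = 3 each, adjusted p = 0.149, edgeR).

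Loci beside or overlapping the 6 genes numbered 15, of which 8 were tested and 0 were called in any comparison by edgeR or DESeq2, with 0 to 2 at an unadjusted p under 0.05. AT1G20760, on the opposite strand 284 bases from AT1G20750 so that the sequence shown above lies between their starts, averaged 63.9 ± 14.0 CPM in abo4-1, 59.3 ± 3.36 CPM in DPB2oe12.1.5, 52.9 ± 4.24 CPM in DPB2oe1.11.5, against 59.5 ± 9.04 CPM in Col-0 (SD, n = 3 each). ESP, the separase gene whose 3′ end lies 56 bases from that of AT4G22960, averaged 11.4 ± 0.259 CPM in abo4-1 and 7.03 ± 0.711 CPM in Col-0 (SD, n = 3 each, log2 difference 0.70 ± 0.23, adjusted p = 0.338, edgeR). AT5G07620, 70 bases from AT5G07610, differed from Col-0 by 0.48 ± 0.36 in abo4-1, 0.01 ± 0.37 in DPB2oe12.1.5 and 0.34 ± 0.35 in DPB2oe1.11.5.

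Transcripts overlap 3 of the genes on the opposite strand, and the sources used here do not say whether counting used the strand of these stranded libraries. The lncRNA AT2G30362, antisense to SIP4, had 25 counts in abo4-1, 32 in DPB2oe12.1.5, 45 in DPB2oe1.11.5 and 40 in Col-0, against 1222, 765, 1072 and 501 for SIP4. AT5G60260, which overlaps the 3′ end of AT5G60250, had 56 counts in abo4-1, 13 in DPB2oe12.1.5, 24 in DPB2oe1.11.5 and 30 in Col-0, against 1257, 203, 270 and 54 for AT5G60250. Between abo4-1 and the DPB2oe lines AT5G60260 differed by 1.95 ± 0.54 (DPB2oe12.1.5, adjusted p = 0.116, edgeR) and by 1.62 ± 0.49 (DPB2oe1.11.5, adjusted p = 0.117). AT2G47885, antisense to AT2G47880, was not analysed here.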

How the data were processed

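mRNA from 12 seedling libraries (3 per genotype) was analysed from the deposited read counts per locus, which the authors made against TAIR10 per the submitters' processing notes. No source used here names the aligner or counter, and per the file headers reads with several hits were removed. The locus length deposited beside the counts served for levels per kilobase. The 6 genes, the gene lists and the tests were chosen with earlier results of these data known. Library titles write DPB2oe1.11.5 with a different final digit, and the genotype label was followed.

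The counts were modelled with edgeR 4.0.16 under R 4.3.3. Of 33602 loci, 19924 passed filterByExpr. After TMM scaling, all 12 libraries entered a single quasi-likelihood fit (glmQLFit robust, glmQLFTest) whose terms were the genotype means. Each comparison's p-values were adjusted together by the Benjamini-Hochberg method, with calls at adjusted values under 0.05. The comparisons with Col-0 underlay the choice of the 6 genes and are no test of them, so their p-values are given only between mutant lines. The procedure was tested on simulated data. CPM values are TMM-scaled, correlations use log2 CPM with a prior count of 2, and intervals are 95%.

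Coordinates, names and sequences came from the RefSeq annotation of TAIR10.1, to which 32835 loci and all 6 genes matched by locus identifier, since the files carry no coordinates. Up to 3 paralogues per gene, by bit score, were kept from BLAST 2.17.0 (blastp, E at most 1e-20 over at least 50% of the gene's protein) on coding sequences translated from that genome, in place of a protein table.

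Named genes were the 6, the 3 most alike genes, up to 3 paralogues and the neighbours of each, and in each list no more than 4 called genes, those of lowest adjusted p. NRT2.1, ESP, AT5G60260 and AT5G07620 were singled out among listed loci after their values were seen. Marker lists for green tissue, root hair, root ground tissue, trichome, guard cell, phloem, xylem, embryo and dividing cells were summed per library.

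Alternatives were RLE scaling, no filter, DESeq2 1.42.0, the replicate number as a block, leaving out the 4 libraries of highest LHY, and leaving out each library in turn. Same-numbered libraries deviated together in all 3 pairs for abo4-1 with DPB2oe1.11.5 (correlations 0.137, 0.552 and 0.348), though the labels name no shared batch. The block left every call of the 6 genes in that comparison as it was and gave 422 called genes in place of 327.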

Additional observations from a re-analysis of the deposited data

Results flagged for a closer look

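AT5G60250 and AT4G22960 differed between the polymerase mutant and the DPB2 overexpressors, by the test of that difference. AT5G60250 was higher in abo4-1 by 2.694 on the log2 scale against DPB2oe1.11.5 and by 2.567 against DPB2oe12.1.5. AT4G22960 was higher in abo4-1 by 1.857 and by 1.461 in the same comparisons, and its second value lost the call in most fits with a library left out. Summed markers of dividing cells also stood highest in abo4-1, at 95.6 to 107 CPM, against 66.6 to 74.7 CPM in DPB2oe12.1.5 and 63.0 to 93.0 CPM in DPB2oe1.11.5. Not every marker in the sum did so, since KNOLLE averaged 43.2 CPM in abo4-1 and 45.6 CPM in DPB2oe1.11.5. Another of them, CYCB1;1, is also on the list of DNA damage genes. The part of these markers in the differences was not tested.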

How the results depend on the processing

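Against Col-0, 196 values of the 6 genes under the alternatives stayed within the spread between replicates and 2 moved by more: AT1G20750 stood at 2.115 in DPB2oe12.1.5 without the 4 libraries of highest LHY, and without Col-0 replicate 3 at 3.503 in DPB2oe1.11.5. Between mutant lines, 169 values kept direction and side of the threshold, 9 lost a call (all AT4G22960), 3 gained it (SIP4) and 17 uncalled values changed sign, for which the cause was not tested. Not all of those that changed sign were near 0, since AT2G47880 stood at 0.4525 in the main fit of abo4-1 against DPB2oe12.1.5. With no filter, AT1G20750 gave -0.002945 in abo4-1 against DPB2oe12.1.5. Without the 4 libraries of highest LHY, which leaves DPB2oe12.1.5 with 1 library assumed to vary like the others, AT5G07610 gave 0.1669 in abo4-1 against DPB2oe1.11.5, AT2G47880 -0.1894 in abo4-1 against DPB2oe12.1.5 and AT5G60250 -0.1195 in DPB2oe12.1.5 against DPB2oe1.11.5. With each library left out in turn, AT1G20750 ran from -0.259 to 0.4732 and AT5G07610 from -0.0814 to 0.4978 in abo4-1 against DPB2oe12.1.5. AT2G47880 ran from -0.555 to 0.005118 and AT5G07610 from -0.5361 to 0.2985 in abo4-1 against DPB2oe1.11.5. SIP4 ran from -0.06973 to 0.1687, AT5G60250 from -0.04706 to 0.2939 and AT5G07610 from -0.6991 to 0.2151 in DPB2oe12.1.5 against DPB2oe1.11.5.

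Counts of called genes depended more on the setting, and the cause was not tested. In abo4-1 against DPB2oe1.11.5, abo4-1 against DPB2oe12.1.5, DPB2oe12.1.5 against DPB2oe1.11.5, abo4-1 against Col-0, DPB2oe12.1.5 against Col-0 and DPB2oe1.11.5 against Col-0 they were 327, 142, 6, 156, 85 and 141, and with DESeq2 923, 646, 670, 308, 708 and 645. Leaving out each library in turn gave 79 to 572, 49 to 207, 3 to 1119, 65 to 94, 15 to 95 and 21 to 286 in that order. No filter gave 222 in abo4-1 against DPB2oe12.1.5, 115 in DPB2oe12.1.5 against DPB2oe1.11.5, 215 in DPB2oe1.11.5 against Col-0 and 180 in DPB2oe12.1.5 against Col-0. Without the 4 libraries of highest LHY there were 1065, 74 and 1042 between mutant lines in that order, 925 in DPB2oe1.11.5 against Col-0 and 47 in DPB2oe12.1.5 against Col-0. The replicate block gave 152 in DPB2oe12.1.5 against Col-0 and 17 in DPB2oe12.1.5 against DPB2oe1.11.5; outside abo4-1 with DPB2oe1.11.5, same-numbered libraries did not all deviate together. Of the 6 genes' calls, the block changed the AT4G22960 value in abo4-1 against DPB2oe12.1.5 alone. Depth limits the Col-0 levels of AT1G20750, AT4G22960 and AT5G07610, which rest on 11, 10 and 2 counts.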
